A study of Sus scrofa with 18 samples.

Results

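The genes described here are the cytosolic and mitochondrial heat shock proteins, their partner proteins and the transcription factors that switch them on. They were chosen by symbol, as the HSPA, HSPB, HSPH1 and HSP90A genes, the chaperonin pair HSPD1 and HSPE1, the DNAJA, DNAJB and DNAJC genes, HSF1 and HSF2, and BAG1 to BAG6. The 4 endoplasmic reticulum (ER) genes HSPA5, DNAJB9, DNAJB11 and DNAJC3 were left out. This gave 60 of the 15240 genes measured, made up of 9 HSPA genes, 1 HSPH gene, 2 HSP90 genes, 2 chaperonin genes, 4 small heat shock proteins, 34 J-domain (DNAJ) genes, 6 BAG genes and 2 heat shock factors. The symbol does not separate compartments cleanly, because members such as the 8 listed here as ER members (HSPA13, DNAJB12, DNAJB14, DNAJC1, DNAJC10, DNAJC16, DNAJC18 and DNAJC25) encode proteins placed in or on the ER.

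Total RNA was sequenced from a purchased culture of pig (Sus scrofa) cells, described in the labels as primary kidney endothelial cells and abbreviated KEC. Of the 18 libraries, 5 were labelled cell-cell interaction, 5 St8i6a plasmid (written ST8Sia6 plasmid here), 2 wild type, 1 negative (KEC plus all cells) and 5 GFP control. Plasmids for ST8Sia6, a sialyltransferase, or for GFP, a fluorescent protein, were brought in with Lipofectamine LTX, and cells were used 24 hours later. The protocols also describe transfected cells that had been co-cultured with peripheral blood mononuclear cells. The plasmid of the cell-cell interaction cells, any plasmid in the wild type or KEC plus all cells libraries, and the experiment each library came from are not labelled. The p-values therefore cover the spread among these libraries alone, and that spread may be technical.

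Heat shock proteins are molecular chaperones. HSP70 proteins bind exposed hydrophobic stretches of other proteins and release them in a cycle driven by ATP. J-domain proteins deliver the client and trigger ATP hydrolysis, and BAG and HSP110 proteins release the ADP and with it the client. HSP90 finishes the folding of kinases and steroid receptors, small heat shock proteins hold unfolded clients in a refoldable state, and HSPD1 with its lid HSPE1 folds proteins inside mitochondria. HSF1 is kept inactive by chaperones in unstressed cells, and when unfolded proteins draw those chaperones away it drives the inducible members. In endothelium HSP90 is known as a partner of nitric oxide synthase and HSPB1 as a regulator of actin.

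Each library held 14867035 to 33301008 counts. Transcripts of the mitochondrial genome took 13.8% to 25.4% of the counts in 6 libraries, cell-cell interaction 1 to 4 and ST8Sia6 plasmid 4 and 5, and 1.22% to 4.32% in the other 12; these 6 were also the shallowest. Counts of ST8SIA6 ranged over 0 to 439 in cell-cell interaction libraries, 0 to 61 in ST8Sia6 plasmid libraries and 0 to 27 in GFP control libraries, so the plasmid's gene did not separate the labels. The fold changes in the authors' deposited tables were matched by least squares to weights of the libraries, and 4 libraries took a side other than their label: St8i6a plasmid took in GFP control 5, Cell cell interaction GFP took in ST8Sia6 plasmid 4 and 5, and Cell cell interaction st8i6a took in wild type 1. Each result below follows the labels, and members whose call changed without these 4 libraries are named in each comparison. Of 14 endothelial markers 9 were matched, and their summed level was 80.0 to 172 CPM (each count relative to the scaled total of its library) in cell-cell interaction, 54.7 to 79.0 CPM in ST8Sia6 plasmid and 47.5 to 61.7 CPM in GFP control libraries, mostly FLT1, with the defining markers PECAM1 at 0.88 to 4.86 CPM and ERG at 0 to 2.30 CPM over all libraries. The summed level of 12 matched kidney epithelial markers was 1087 to 1763, 1386 to 2223 and 1871 to 2739 CPM in the same order of labels, so both marker lists moved with the labels. Of 12 fibroblast and mural markers 8 were matched, led by FN1, and summed to 15604 to 71482, 16716 to 43465 and 27954 to 63201 CPM in that order. The markers in this sum did not move together. PDGFRB had 17.5 to 51.9 CPM in cell-cell interaction and 1.21 to 4.04 CPM in GFP control libraries. DES had 31.4 to 80.5 and 3.07 to 14.3 CPM in these labels. VIM went the other way, at 2585 to 3672 and 3590 to 4395 CPM, and FN1 overlapped between them. Of 19 leukocyte markers 14 were matched and summed to 44.3 to 63.7, 40.4 to 58.9 and 38.5 to 134 CPM; the defining one, PTPRC, was at 0 in cell-cell interaction 1 to 4 and at 2.19 CPM in cell-cell interaction 5, against 4.01 and 8.06 CPM in GFP control 1 and 2; the other 3 GFP control libraries had 0. In wild type the endothelial markers summed to 118 to 181 CPM and the kidney epithelial markers to 1658 to 1885 CPM. The part of these other cell types in the results below was not tested. In bulk RNA, fewer cells of a type and less RNA per cell cannot be told apart.

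Most members were detected, as were most of the 15240 genes measured. No deposited gene was without counts, so a silent family gene would not be among the 60. A mean of at least 1 CPM was reached by 56 of the 60 members, and the 4 below it were HSPB7, HSPA1L, DNAJC12 and DNAJB13. Per kilobase of gene length, the highest mean levels were those of HSPB1, the actin-associated small heat shock protein, at 280 CPM per kilobase, and HSPA8, the constitutive cytosolic HSP70, at 234 CPM per kilobase. The cytosolic HSP90 genes followed, with HSP90AA1 at 207 and HSP90AB1 at 159 CPM per kilobase, and then the mitochondrial HSP70 gene HSPA9 at 103 CPM per kilobase. These 5 genes held 56.4% of the summed level per kilobase of the family. The mitochondrial chaperonin genes HSPD1 and HSPE1 stood next, at 95 and 63.3 CPM per kilobase, and lie head to head on chromosome 15 with 260 bases between them. The order per kilobase depends on the deposited gene length, which was 1236 bases for HSPB1 and 6571 bases for HSPA8. In CPM not divided by length, HSPA8 averaged 1540, HSP90AB1 1042, HSP90AA1 895 and HSPB1 346.

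**Figure D1:**
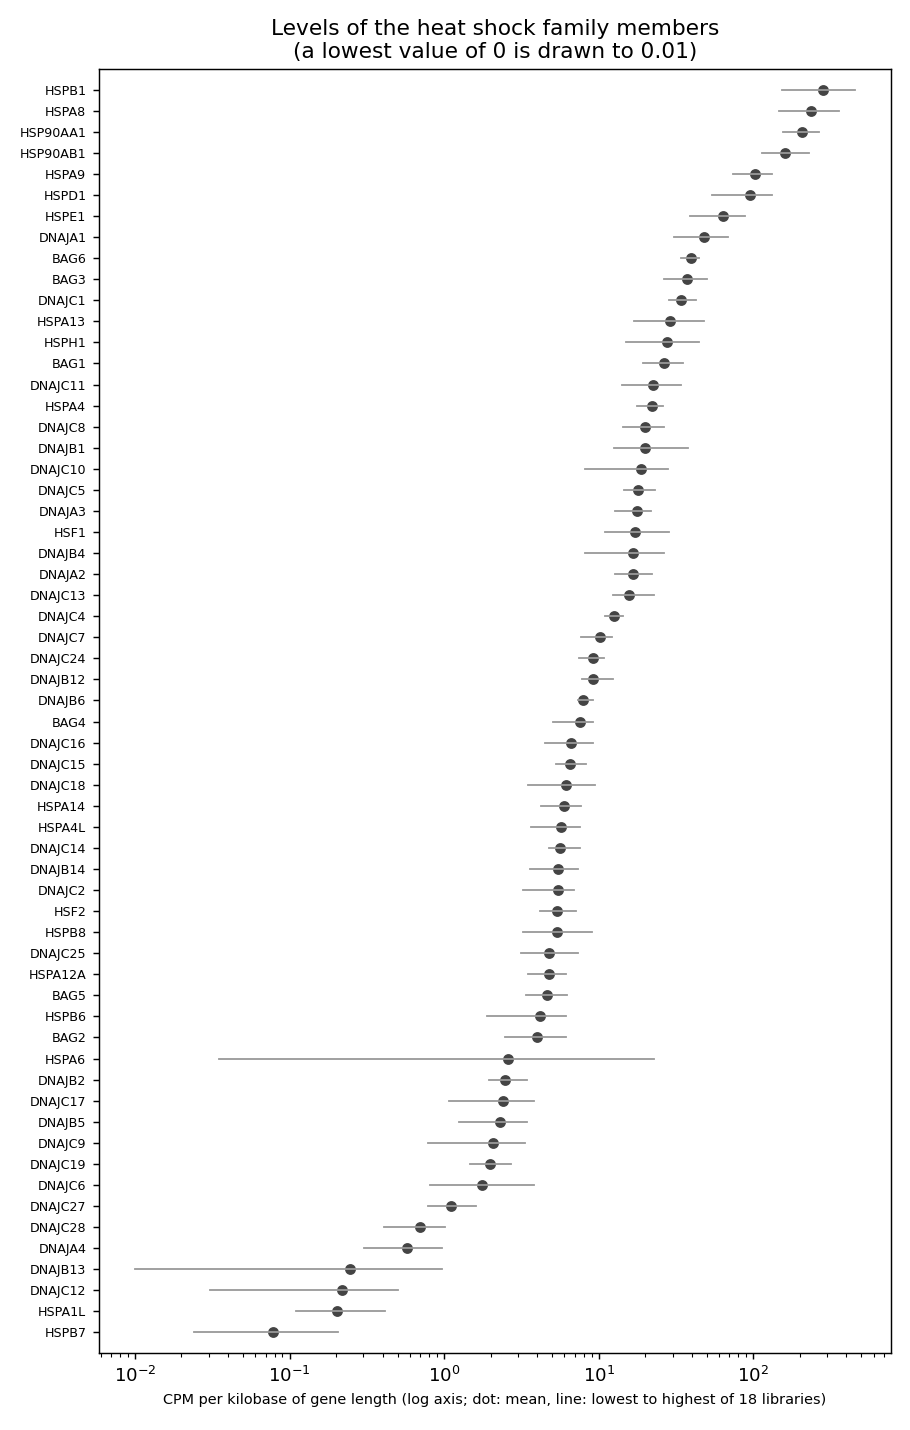
Mean level of each of the 60 members in CPM per kilobase of gene length (log axis, dots), with lines from the lowest to the highest of the 18 libraries. HSPB1, HSPA8, HSP90AA1, HSP90AB1 and HSPA9 lead, and HSPA6 has the longest line of the members detected in every library.

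The highest library exceeded the lowest by a median of 2.05-fold over the members, and 26 members stayed within 2-fold. The steadiest was DNAJB6, a suppressor of protein aggregation, whose highest library was 1.26-fold its lowest. On log2(CPM + 0.5), the SD over the 18 libraries had a median of 0.29 over the 56 members of at least 1 CPM. It was 0.36 over all genes at that level, 12769 of the 15240 measured. The 5 most variable of these members were HSPA6, DNAJC10, DNAJC6, DNAJC9 and HSPH1.

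The first comparison set cell-cell interaction libraries against GFP control libraries. A total of 14 of 59 members tested passed an FDR of 0.05 (edgeR quasi-likelihood test, Benjamini-Hochberg over all genes), 23.7% of the members, against 39.5% of the 13951 genes tested. HSPA6, HSF1, DNAJC5 and HSPB7 rose, and DNAJA2, DNAJA4, DNAJB4, DNAJB5, DNAJB14, DNAJC6, DNAJC12, DNAJC15, HSPA4 and HSPB8 fell. Over all genes tested, 20.8% rose and 18.7% fell. The median log2 fold change was -0.15 over the 59 members and -0.02 over all genes. At an unadjusted p under 0.05 there were 22 members, against 49.4% of all genes. Without cell-cell interaction 5, 23 members passed, against 50.5% of all genes. Without the libraries against their label 14 members passed, against 39.1% of all genes; HSF1, DNAJC5 and DNAJC15 no longer passed, and HSF2, DNAJC18 and DNAJC28 passed as lower. In 10 members the libraries of the labels did not overlap, against 24.6% of all genes. HSF1 and DNAJC5 passed in 1 of the 10 fits that left out a library, the one without cell-cell interaction 5, whereas HSPA6, HSPB7, HSPA4, HSPB8, DNAJA2, DNAJA4, DNAJB4, DNAJB5, DNAJC6 and DNAJC12 passed in all 10. Among libraries with under 10% mitochondrial counts, only cell-cell interaction 5 was left to set against the 5 GFP control libraries, and 0 members passed, against 0.948% of all genes; 11 members had an unadjusted p under 0.05.

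**Figure D2:**
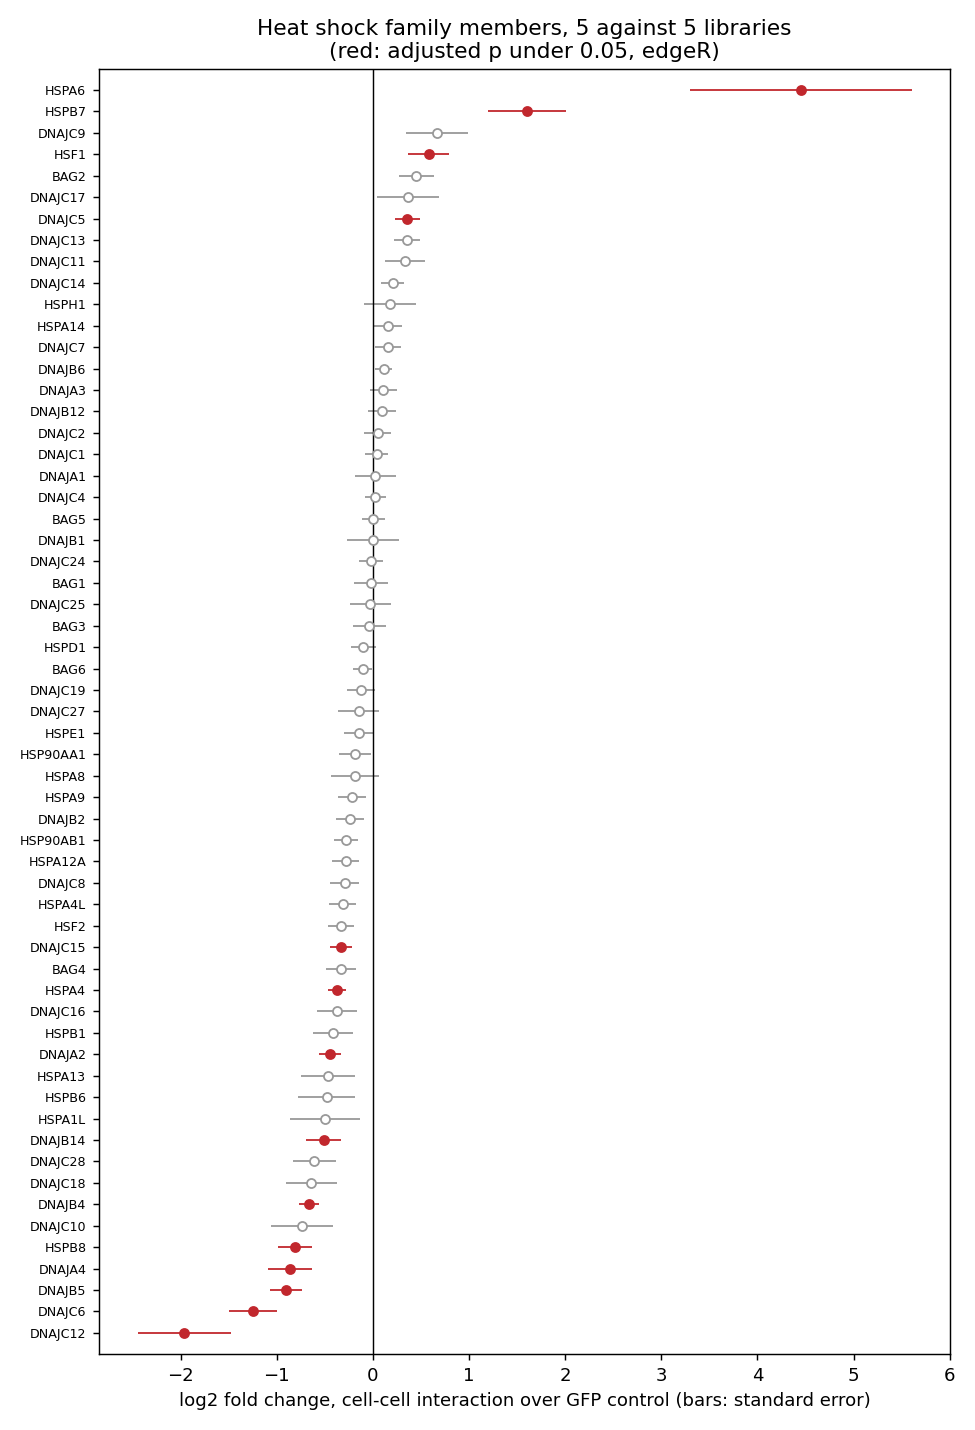
Log2 fold change of cell-cell interaction over GFP control libraries (5 each) for the 59 members tested, with standard errors; filled red points have an adjusted p under 0.05 in edgeR. HSPA6 lies far to the right at 4.45, and 10 of the 14 red points lie left of 0.

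HSF1, the main heat shock transcription factor, had 123, 95.4, 104, 101 and 53.1 CPM in cell-cell interaction 1 to 5, against 76.8, 71.6, 47.4, 58.4 and 71.5 CPM in GFP control 1 to 5. Cell-cell interaction 1 to 4 lay above every GFP control library and cell-cell interaction 5 lay among them. HSF1 rose by a log2 fold change of 0.58 ± 0.21 (SE, adjusted p = 0.0478 in edgeR); without the libraries against their label it was again 0.58 with an adjusted p of 0.0779, in a range of 0.00232 to 0.622 over all settings. HSF1 overlaps 2 genes on the opposite strand, and the use of strand in counting is not given in the sources used here. HSF2, a developmental heat shock factor that can pair with HSF1, had a mean of 12.1 CPM in cell-cell interaction and 15.5 CPM in GFP control libraries and did not pass (log2 fold change -0.33 ± 0.13 SE, adjusted p = 0.072 in edgeR). HSF2 passed as lower without the libraries against their label (log2 fold change -0.41), without GFP control 2 and with all groups in 1 fit.

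HSPA6 showed the widest range of the family. In humans it encodes an HSP70 that is barely made without stress; in the pig tables it lies on chromosome 4 at 88970591 to 88985586 on the minus strand (susScr11). Its level was 77.4, 21.9, 27.8, 4.49 and 0.630 CPM in cell-cell interaction 1 to 5, against 1.47, 0.863, 0.190, 0.120 and 3.51 CPM in GFP control 1 to 5. Behind these stood 1432, 341, 468, 81 and 17 counts in cell-cell interaction libraries and 3 to 87 counts in GFP control libraries. Cell-cell interaction 1 to 4 stood above all GFP control libraries, and cell-cell interaction 5 lay among them. The mean was 26.4 ± 30.7 CPM in cell-cell interaction and 1.23 ± 1.39 CPM in GFP control libraries (SD, n = 5 each), and HSPA6 rose by a log2 fold change of 4.45 ± 1.15 (SE, adjusted p = 0.0116 in edgeR). By limma-voom the adjusted p was 0.119, in a range of 0.000471 to 0.801 over all settings.

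HSPA6 was also higher in the libraries rich in mitochondrial counts within each label that held such libraries. ST8Sia6 plasmid 4 and 5, which had over 10% mitochondrial counts, held 12.6 and 5.16 CPM of HSPA6, and ST8Sia6 plasmid 1, 2 and 3 held 1.35, 0.352 and 0.388 CPM. By the fitted weights, the authors' fold changes place ST8Sia6 plasmid 4 and 5 with Cell cell interaction GFP, beside cell-cell interaction 1 and 2. In these libraries mitochondrial share and contact therefore cannot be told apart. Wild type 1 and 2 had 0.644 and 0.491 CPM, and KEC plus all cells had 0.197 CPM. All 6 libraries with over 10% mitochondrial counts thus stood at 4.49 CPM or more and the other 12 at 3.51 CPM or less. Among libraries under 10% the log2 fold change of cell-cell interaction over GFP control was -1.02 ± 1.69 (SE, 1 against 5 libraries, adjusted p = 0.801 in edgeR). No GFP control library had a high mitochondrial share, so the share and the label cannot be told apart in the other 4 cell-cell interaction libraries.

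The closest pig relative, HSP70.2, carries the synonyms HSPA1A and HSPA1B in RefSeq and lies outside the 60 genes. It had 118, 64.6, 70.1, 37.1 and 34.0 CPM in cell-cell interaction 1 to 5, against 43.4, 36.6, 41.8, 40.2 and 64.0 CPM in GFP control 1 to 5. The 3 highest of these 10 libraries were cell-cell interaction 1, 2 and 3, while cell-cell interaction 4 lay near the low end of GFP control and 5 below it. It did not pass (log2 fold change 0.55 ± 0.32 SE, adjusted p = 0.184 in edgeR). HSPA1L, an HSP70 gene of the testis in humans that overlaps HSP70.2 on the opposite strand, stayed at 0.302 to 1.14 CPM in all libraries. How reads matching several HSP70 genes were counted is not given in the sources used here, so reads could be split among HSPA6, HSP70.2, HSPA1L and HSPA8.

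**Figure D3:**
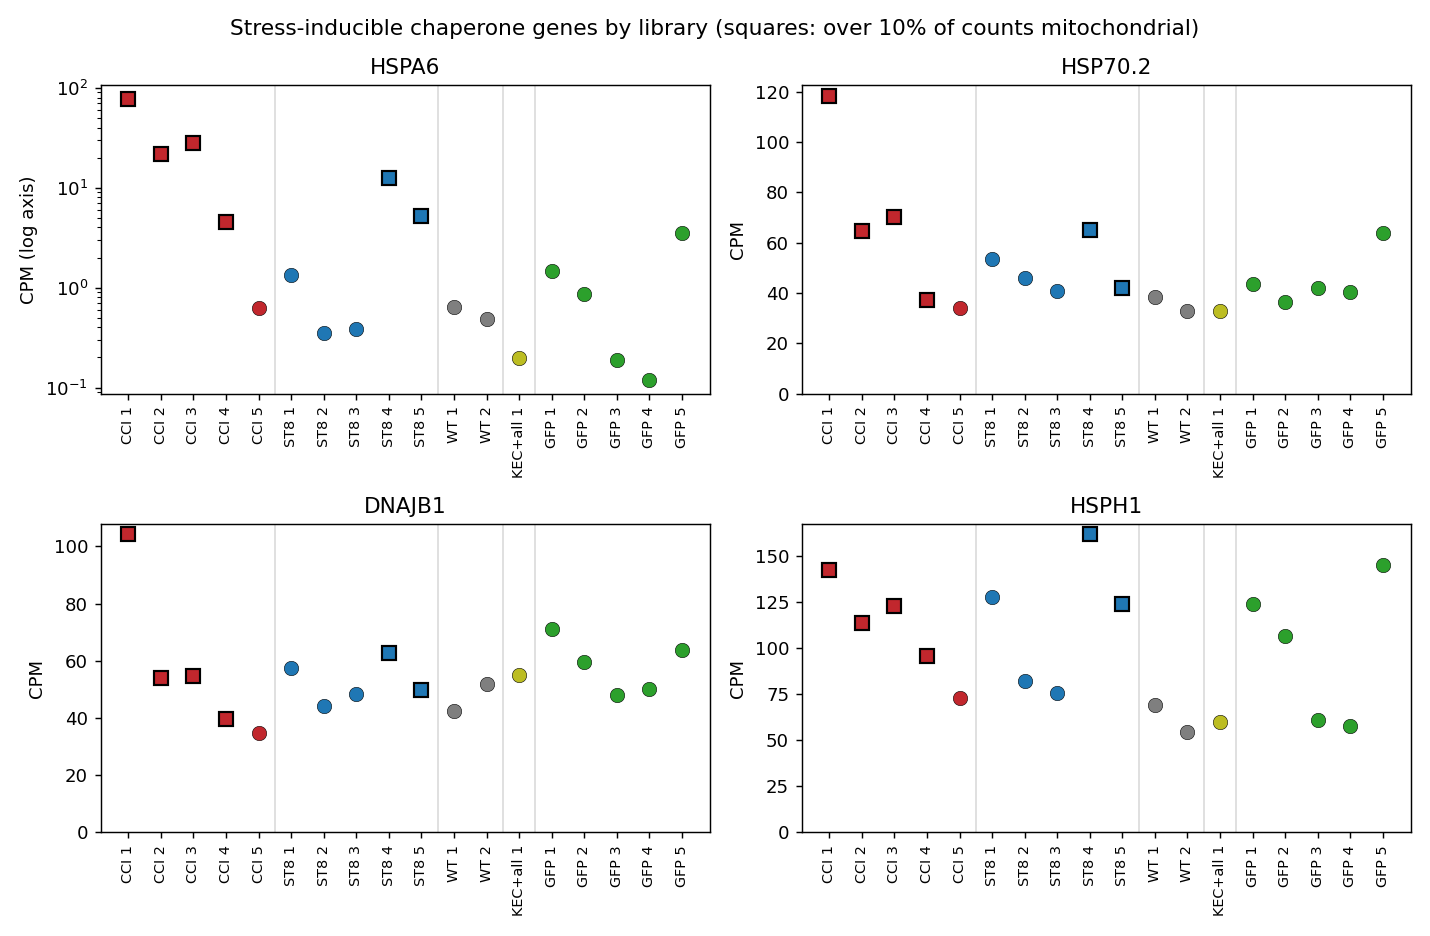
CPM of HSPA6 (log axis), HSP70.2, DNAJB1 and HSPH1 in each library, grouped by label (CCI, cell-cell interaction; ST8, ST8Sia6 plasmid; WT, wild type; KEC+all, KEC plus all cells; GFP, GFP control); squares mark libraries with over 10% mitochondrial counts. All squares of HSPA6 stand at 4.49 CPM or more, and cell-cell interaction 1 is the highest library for HSPA6, HSP70.2 and DNAJB1 but not for HSPH1.

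The constitutive HSP70 genes did not pass. HSPA8, which carries out most housekeeping folding in the cytosol, had 1538, 1342, 1328, 1237 and 1345 CPM in cell-cell interaction 1 to 5, against 1915, 1704, 977, 963 and 2348 CPM in GFP control 1 to 5. The cell-cell interaction libraries lay between the low and the high GFP control libraries. HSPA6 amounted to 5.03% of HSPA8 in CPM in cell-cell interaction 1 and to 0.150% in the highest GFP control library. HSPA9, the HSP70 of the mitochondrial matrix, averaged 260 ± 12 CPM in cell-cell interaction and 309 ± 60.6 CPM in GFP control libraries (SD, n = 5 each) and did not pass.

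Of the HSP110-type exchange factors, HSPA4 fell, and HSPH1 and HSPA4L did not pass. HSPA4L averaged 72.1 ± 8.34 CPM in cell-cell interaction and 91.4 ± 17.0 CPM in GFP control libraries (SD, n = 5 each). It passed as lower without cell-cell interaction 5 and without GFP control 3. HSPA4 had 182, 186, 185, 194 and 194 CPM in cell-cell interaction 1 to 5, against 266, 244, 233, 237 and 263 CPM in GFP control 1 to 5. Every cell-cell interaction library lay below every GFP control library, and HSPA4 fell by 0.37 on the log2 scale (SE 0.09, adjusted p = 0.00974 in edgeR). HSPH1, which like HSPA4L is listed here as HSF1-inducible, had 142, 114, 123, 95.6 and 72.9 CPM in cell-cell interaction 1 to 5, against 124, 106, 61.1, 57.9 and 145 CPM in GFP control 1 to 5. These ranges overlapped throughout. The log2 ratio of HSPH1 to HSPA4, which needs no library scaling, averaged -0.82 ± 0.41 in cell-cell interaction and -1.42 ± 0.52 in GFP control libraries (SD, n = 5 each), and its difference of 0.61 did not pass an exact permutation test (two-sided p = 0.0873, 0.524 adjusted over 6 such tests, smallest possible p 0.00794). Leaving out 1 library in turn, the difference was largest without cell-cell interaction 5, at 0.75 (unadjusted exact permutation p = 0.0317). That p was not adjusted for the choice among these fits.

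Neither cytosolic HSP90 gene nor the mitochondrial chaperonin pair passed. HSP90AB1, the constitutive form, had 830 to 942 CPM in cell-cell interaction libraries, against 1013 to 1221 CPM in GFP control libraries, and did not pass although the labels did not overlap (log2 fold change -0.28 ± 0.12 SE, adjusted p = 0.0892 in edgeR). HSP90AA1, the more stress-responsive form, averaged 803 ± 46.2 CPM in cell-cell interaction and 933 ± 211 CPM in GFP control libraries (SD, n = 5 each) and did not pass. The log2 ratio of HSP90AA1 to HSP90AB1 was higher by 0.12 in cell-cell interaction than in GFP control libraries, which did not pass (exact permutation p = 0.429). HSPD1 averaged 227 ± 23.3 CPM in cell-cell interaction and 248 ± 36.1 CPM in GFP control libraries, and HSPE1 averaged 49.9 ± 6.69 and 56.5 ± 10.5 CPM (SD, n = 5 each); neither passed. The log2 ratio of HSPD1 to HSPE1 differed by 0.05 between these labels (exact permutation p = 0.794).

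Among the small heat shock proteins, HSPB8 fell. It acts with BAG3 to steer misfolded proteins to autophagy. HSPB8 had 7.51, 7.18, 8.43, 8.81 and 7.38 CPM in cell-cell interaction 1 to 5, against 14.3, 12.5, 16.0, 18.2 and 9.28 CPM in GFP control 1 to 5. No library of either label overlapped with the other, and HSPB8 fell by 0.81 on the log2 scale (SE 0.18, adjusted p = 0.00556 in edgeR). HSPB1 averaged 301 ± 66.6 CPM in cell-cell interaction and 409 ± 97.4 CPM in GFP control libraries (SD, n = 5 each) and did not pass. HSPB7, a small heat shock protein of heart and muscle, rose by 1.61 ± 0.41 on the log2 scale (SE, adjusted p = 0.0103 in edgeR), on only 9 to 22 counts in cell-cell interaction and 4 to 13 counts in GFP control libraries.

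Of the 34 J-domain genes, 33 were tested, 1 rose and 8 fell, against 20.8% and 18.7% of all genes. DNAJB4, an HSP70 partner of the same class as DNAJB1, had 38.5, 41.0, 40.4, 40.0 and 47.1 CPM in cell-cell interaction 1 to 5, against 79.3, 65.2, 67.5, 61.5 and 61.9 CPM in GFP control 1 to 5. All cell-cell interaction libraries, cell-cell interaction 5 with its low mitochondrial share included, lay below all GFP control libraries. DNAJB4 fell by 0.67 on the log2 scale (SE 0.10, adjusted p = 0.000997 in edgeR), the lowest adjusted p of the family in this comparison. Among libraries under 10% mitochondrial its log2 fold change was -0.55 ± 0.21 (SE, 1 against 5 libraries). DNAJB5, of the same class, averaged 4.71 ± 0.81 CPM in cell-cell interaction and 8.99 ± 0.99 CPM in GFP control libraries (SD, n = 5 each) and fell by 0.90 on the log2 scale (SE 0.16, adjusted p = 0.00221 in edgeR). DNAJB1, the partner that HSF1 induces together with HSP70, had 104, 53.9, 54.8, 39.5 and 34.7 CPM in cell-cell interaction 1 to 5, against 71.1, 59.7, 48.2, 50.1 and 63.9 CPM in GFP control 1 to 5. Cell-cell interaction held both the highest library and the lowest of these 10, and DNAJB1 did not pass.

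DNAJC6, or auxilin, which strips clathrin from vesicles with HSPA8, had 9.95, 7.18, 8.55, 8.65 and 5.89 CPM in cell-cell interaction 1 to 5, against 15, 14.6, 27.0, 27.8 and 13.0 CPM in GFP control 1 to 5. The labels did not overlap, and GFP control 3 and 4 stood well above the rest. DNAJC6 fell by 1.25 on the log2 scale (SE 0.25, adjusted p = 0.00374 in edgeR). DNAJA2, a general HSP70 partner, averaged 72.7 ± 4.40 CPM in cell-cell interaction and 101 ± 14.9 CPM in GFP control libraries (SD, n = 5 each) and fell by 0.45 on the log2 scale (SE 0.12, adjusted p = 0.011 in edgeR). DNAJA4 fell by 0.86 on the log2 scale (SE 0.23, adjusted p = 0.0137 in edgeR), at levels of only 1.83 to 3.41 CPM in cell-cell interaction and 3.15 to 5.84 CPM in GFP control libraries. DNAJC12, a partner of the aromatic amino acid hydroxylases, fell by 1.96 on the log2 scale (SE 0.49, adjusted p = 0.0096 in edgeR) on 1 to 6 counts in cell-cell interaction and 12 to 22 counts in GFP control libraries.

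The last 3 J-domain genes that passed did so narrowly. DNAJC5, the cysteine string protein of secretory vesicles, had 36.5, 38.5, 37.0, 34.0 and 26.4 CPM in cell-cell interaction 1 to 5, against 30.5, 27.4, 24.3, 25.2 and 29.6 CPM in GFP control 1 to 5, and rose by 0.36 ± 0.13 on the log2 scale (SE, adjusted p = 0.0427 in edgeR), a call lost without the libraries against their label. As for HSF1, cell-cell interaction 1 to 4 stood above all GFP control libraries and cell-cell interaction 5 among them. DNAJC15, a J protein of the inner mitochondrial membrane, averaged 13.9 ± 0.715 CPM in cell-cell interaction and 17.9 ± 2.01 CPM in GFP control libraries (SD, n = 5 each), with an adjusted p of 0.0362 in edgeR. DNAJB14, anchored in the ER membrane, averaged 30.9 ± 9.38 CPM in cell-cell interaction and 45.0 ± 6.11 CPM in GFP control libraries (SD, n = 5 each), with an adjusted p of 0.0441 in edgeR. DNAJC15 was lost in 7 and DNAJB14 in 6 of the 10 fits that left out a library.

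Of the 6 BAG genes, 0 passed in this comparison with edgeR, 1 (BAG2) had an unadjusted p under 0.05 and DESeq2 called the same 1, against 45.4% of all genes in DESeq2. BAG3, the HSF1-induced partner of HSPB8, had 131, 103, 110, 95.8 and 69.0 CPM in cell-cell interaction 1 to 5, against 116, 98.1, 96.7, 92.2 and 131 CPM in GFP control 1 to 5. The libraries overlapped, with cell-cell interaction 5 the lowest of the 10. BAG2, which restrains the ubiquitin ligase CHIP, averaged 39.0 ± 6.86 CPM in cell-cell interaction and 29.1 ± 7.01 CPM in GFP control libraries (SD, n = 5 each; adjusted p = 0.0715 in edgeR).

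The classical HSF1-inducible chaperones did not move as a block. Of 12 listed genes that were measured, HSPA6 rose, DNAJB4 fell and 10 did not pass (HSPA8, HSPA4L, HSPH1, HSP90AA1, HSPB1, HSPD1, HSPE1, DNAJA1, DNAJB1 and BAG3). Their median log2 fold change was -0.12, against -0.02 over all genes. Of 9 mitochondrial members 1 fell, and of the 8 listed ER members 1 fell, against 18.7% of all genes.

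Outside the family, each chaperone-related list held falling genes and 0 that rose between cell-cell interaction and GFP control libraries. Of 12 other HSF1 targets 4 fell, among them CRYAB, a small heat shock protein of lens and muscle (log2 fold change -0.69 ± 0.15 SE, adjusted p = 0.0049 in edgeR), UBB and MRPL18. Of 18 HSP90 and HSP70 cochaperones 4 fell, led by FKBP5, a brake on the glucocorticoid receptor and itself a glucocorticoid target (-1.10 ± 0.12 SE, adjusted p = 0.000223 in edgeR), with FKBP8 and ST13. Of 12 subunits of the cytosolic chaperonin and of prefoldin 2 fell, CCT7 and CCT3. Of 11 other mitochondrial quality control genes 4 fell, among them the protease subunits CLPX and CLPP (-0.75 ± 0.13 and -0.77 ± 0.15 SE, adjusted p = 0.00184 and 0.00267 in edgeR) and LRPPRC. Of 12 ER chaperones 3 fell, DNAJB11, CALR and PDIA4, with a median log2 fold change of -0.63 over the list. For all genes tested the share that fell was the 18.7% given above.

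The second comparison set ST8Sia6 plasmid against GFP control libraries. With edgeR, 0 of 58 members and 0% of 13840 genes passed; DESeq2 and limma-voom also called 0 members, against 0.0795% of all genes in DESeq2, and 0 members were without overlap between the labels, against 1.03% of all genes. At an unadjusted p under 0.05 there were 5 members, DNAJC13, DNAJA4, HSPB8, DNAJB4 and DNAJC6, against 9.88% of all genes. DNAJC13, which works on endosomes, had 134, 175, 136, 152 and 156 CPM in ST8Sia6 plasmid 1 to 5, against 115, 114, 127, 113 and 134 CPM in GFP control 1 to 5 (log2 fold change 0.34 ± 0.11 SE, adjusted p = 0.502 in edgeR). Only ST8Sia6 plasmid 1 reached the range of GFP control. HSPD1 had 277, 342, 275, 325 and 272 CPM and HSPE1 had 64.6, 76.7, 62.9, 76.7 and 63.2 CPM in ST8Sia6 plasmid 1 to 5, against 265, 250, 206, 222 and 298 CPM and 61.0, 55.8, 43.8, 50.7 and 71.4 CPM in GFP control 1 to 5. Both chaperonin genes had log2 fold changes near 0.3 (0.28 ± 0.13 and 0.30 ± 0.14 SE) that did not pass, and for both GFP control 5 lay within the ST8Sia6 plasmid range. Lower values were seen for DNAJA4, HSPB8 and DNAJB4 (log2 fold changes -0.69 ± 0.24, -0.58 ± 0.21 and -0.55 ± 0.21 SE), none of which passed. HSPA6 had a log2 fold change of 1.68 ± 1.08 (SE, adjusted p = 0.534 in edgeR), with ST8Sia6 plasmid 4 and 5, the libraries rich in mitochondrial counts, as the 2 highest of its 10 libraries.

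The log2 ratio of HSPH1 to HSPA4 was -1.17 ± 0.53 in ST8Sia6 plasmid and -1.42 ± 0.52 in GFP control libraries (SD, n = 5 each; exact permutation p = 0.444). Its values were -0.61 and -0.77 in ST8Sia6 plasmid 4 and 5 and -1.0, -1.69 and -1.76 in ST8Sia6 plasmid 1 to 3, and the difference turned to -0.062 among libraries under 10% mitochondrial. The ratios of HSP90AA1 to HSP90AB1 and of HSPD1 to HSPE1 differed by 0.07 and -0.03 (exact permutation p = 0.643 and 0.484).

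Between cell-cell interaction and ST8Sia6 plasmid libraries, 0 of 57 members passed with edgeR, against 0.159% of 13849 genes, and 15 had an unadjusted p under 0.05, against 32.6% of all genes. HSPA4L, HSPA4 and HSPE1 had the lowest p-values of the members. HSPA4L, an HSP110-type exchange factor, had 67.8, 67.1, 69.5, 69.1 and 86.9 CPM in cell-cell interaction 1 to 5, against 107, 89.9, 92.5, 111 and 105 CPM in ST8Sia6 plasmid 1 to 5 (log2 fold change -0.46 ± 0.10 SE, adjusted p = 0.0594 in edgeR). HSPA4 averaged 188 ± 5.41 CPM in cell-cell interaction and 247 ± 20.8 CPM in ST8Sia6 plasmid libraries (SD, n = 5 each; adjusted p = 0.0615 in edgeR). HSPE1 had 53.0, 46.1, 52.5, 57.6 and 40.4 CPM in cell-cell interaction 1 to 5, against 64.6, 76.7, 62.9, 76.7 and 63.2 CPM in ST8Sia6 plasmid 1 to 5 (adjusted p = 0.0695 in edgeR). In each of these 3 genes the labels did not overlap, as in HSPA8, HSPD1, HSP90AA1 and HSP90AB1, 7 tested members in all, against 8.65% of all genes. DNAJC17, a splicing-related J protein, HSPA6 and DNAJC1, an ER membrane J protein, had the lowest p-values among members that were higher in cell-cell interaction, with log2 fold changes of 0.34 ± 0.14, 2.81 ± 1.21 and 0.21 ± 0.10 (SE, adjusted p = 0.134, 0.14 and 0.176 in edgeR).

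This count depended on the libraries and on the tool. In edgeR 0 members were called lower, against 0.0289% of all genes, and DESeq2 called 8 lower (DNAJA2, HSP90AA1, HSP90AB1, HSPA4, HSPA4L, HSPA8, HSPD1 and HSPE1), against 8.97% of all genes lower and 19.5% called in either direction by DESeq2. Leaving out ST8Sia6 plasmid 4 and 5, the libraries against their label, 14 of 58 members passed in edgeR, against 35.5% of all genes. Of these, HSPA6, HSPB7, BAG2 and DNAJC17 rose, and DNAJA2, DNAJB5, DNAJC6, DNAJC15, HSP90AA1, HSP90AB1, HSPA4, HSPA4L, HSPA9 and HSPE1 fell. Leaving out cell-cell interaction 5 alone gave 12 members, against 23.7% of all genes, and leaving out ST8Sia6 plasmid 5 alone gave 10, against 20.1%.

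Wild type and GFP control libraries were compared next, with 2 against 5 libraries. With edgeR 0 of 59 members passed, against 3.16% of 14496 genes (1.97% higher and 1.19% lower); 6 members had an unadjusted p under 0.05, against 19.3% of all genes, and DESeq2 called 2, BAG5 higher and DNAJB4 lower, against 9.73% of all genes. DNAJB4 had 44.2 and 42.8 CPM in wild type 1 and 2, against 61.5 to 79.3 CPM in GFP control libraries (log2 fold change -0.63 ± 0.15 SE, adjusted p = 0.0667 in edgeR). BAG5, an exchange factor with several BAG domains, had 31.4 and 26.9 CPM in wild type 1 and 2, against 20.1 to 23.0 CPM in GFP control libraries (0.46 ± 0.14 SE, adjusted p = 0.138 in edgeR). In both genes the labels did not overlap, as was the case for 14 members here and for 25.6% of all genes. BAG3 had 74.9 and 76.2 CPM in wild type 1 and 2, against 92.2 to 131 CPM in GFP control libraries, and DNAJC6 had 8.02 and 11.1 CPM, against 13.0 to 27.8 CPM. DNAJC25 and DNAJC14, an ER membrane J protein that stands outside the list of 8, were higher in wild type by log2 fold changes of 0.42 ± 0.16 and 0.28 ± 0.13 (SE), and none of these 4 passed.

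With its single library, KEC plus all cells was not tested. Its DNAJB4 level of 47.2 CPM and its BAG5 level of 31.3 CPM lay outside the GFP control range, as in wild type. Wild type 2 and KEC plus all cells had the 2 lowest levels of HSPD1 (139 and 142 CPM) and of HSPE1 (35.7 and 33.7 CPM) of all 18 libraries, while wild type 1 had 260 and 47.3 CPM. The wild type mean of the chaperonin genes therefore joined unlike libraries.

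Some cytosolic chaperones, chosen after their values were seen, differed widely within the GFP control label. GFP control 3 and 4 had 977 and 963 CPM of HSPA8, against 1915, 1704 and 2348 CPM in GFP control 1, 2 and 5. HSPH1 stood at 61.1 and 57.9 CPM in GFP control 3 and 4, against 124, 106 and 145 CPM, and DNAJA1, a cytosolic HSP70 partner, at 70.1 and 79.0 CPM, against 126, 110 and 159 CPM. For these 3 genes GFP control 3 and 4 were the 2 lowest of the label. Other cytosolic members did not follow them, as HSPB1 had 438 and 558 CPM in GFP control 3 and 4, the 2 highest of the label. The ER chaperones HSPA5 and HSP90B1 were also higher in these libraries, as were some but not all of the other listed ER chaperones. PDIA6 had 384 and 372 CPM in GFP control 3 and 4, against 231, 248 and 265 CPM in GFP control 1, 2 and 5. DNAJC3 had 131 and 120 CPM in GFP control 3 and 4, against 137, 131 and 171 CPM in GFP control 1, 2 and 5. HSPA5, the HSP70 of the ER, had 1878 and 1700.1 CPM in GFP control 3 and 4, against 843, 856 and 1091 CPM in GFP control 1, 2 and 5, and HSP90B1, the HSP90 of the ER, had 1512 and 1273 CPM, against 773, 766 and 956 CPM. HSPA5 thus came to 192% and 177% of HSPA8 in CPM in GFP control 3 and 4 and to 44.0% to 50.2% in GFP control 1, 2 and 5. These groups of libraries were seen in the data and were not compared by a test.

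**Figure D4:**
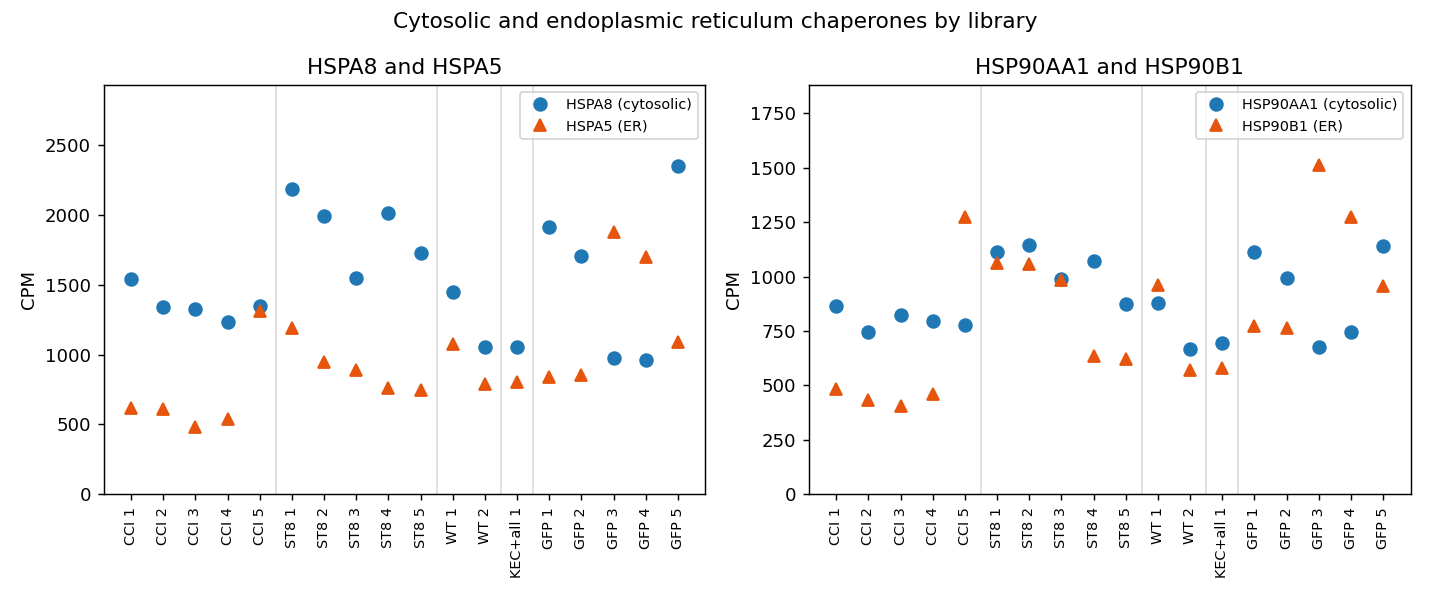
CPM of the cytosolic chaperones HSPA8 and HSP90AA1 (circles) and of their ER relatives HSPA5 and HSP90B1 (triangles) in each of the 18 libraries, by label. In GFP control 3 and 4 the triangles lie above the circles, and in cell-cell interaction 1 to 4 the triangles lie lowest, at 479 to 620 CPM for HSPA5.

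Within the cell-cell interaction label, library 5 stood above the other 4 for the ER members DNAJC10 and HSPA13, as it did for members outside the ER such as DNAJC13 (204 CPM) and BAG4 (52.0 CPM). DNAJC10, the disulfide reductase of the ER, had 61.1, 60.4, 66.2 and 86.2 CPM in cell-cell interaction 1 to 4 and 200.3 CPM in cell-cell interaction 5, against 141, 129, 201, 186 and 149 CPM in GFP control 1 to 5. HSPA13, an HSP70 of microsomes, had 53.6 to 59.8 CPM in cell-cell interaction 1 to 4 and 151 CPM in cell-cell interaction 5, against 91.7 to 131 CPM in GFP control libraries. In ST8Sia6 plasmid 4 and 5 DNAJC10 stood at 88.7 and 91.0 CPM, below 163, 190 and 209 CPM in ST8Sia6 plasmid 1 to 3, so all 6 libraries with over 10% mitochondrial counts had less DNAJC10 than any other library. DNAJC9, a nuclear histone chaperone, had 14.8, 17.4, 12.9, 11.8 and 8.86 CPM in cell-cell interaction 1 to 5, against 10.3, 11, 4.44, 4.08 and 12.3 CPM in GFP control 1 to 5. GFP control 3 and 4 were the lowest of all 18 libraries for DNAJC9, and it did not pass (log2 fold change 0.67 ± 0.32 SE).

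**Figure D5:**
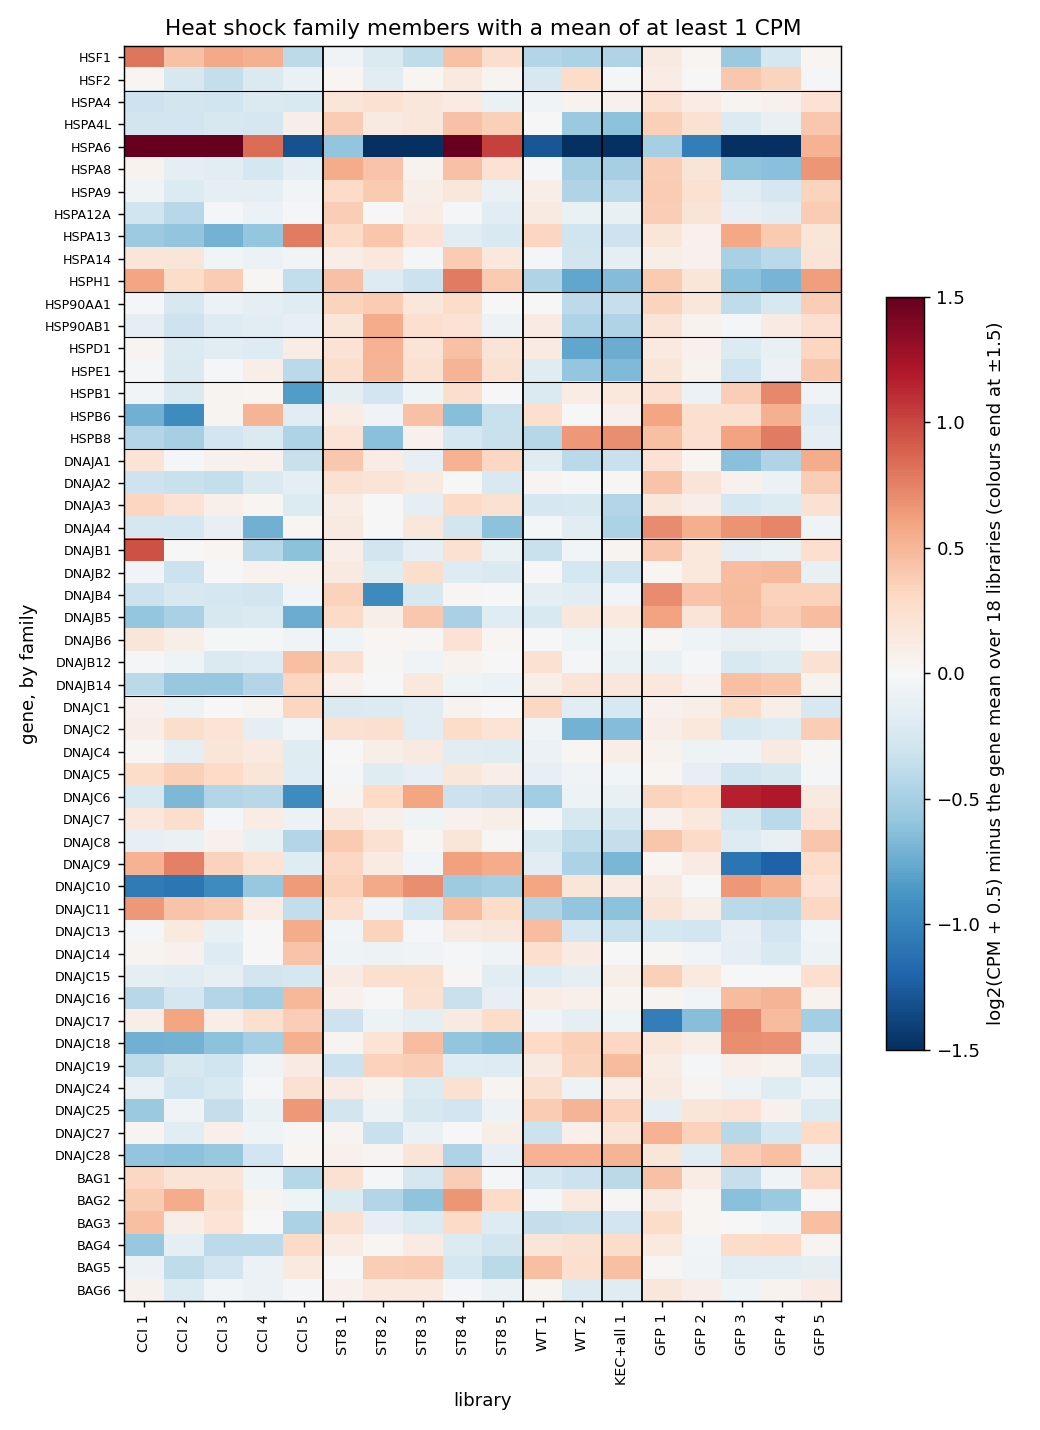
Each of the 56 members of at least 1 CPM (rows, by family) in each of the 18 libraries (columns, by label), as log2(CPM + 0.5) minus the gene's mean over the libraries; colours end at 1.5. HSPA6 is above its mean in cell-cell interaction 1 to 4 and ST8Sia6 plasmid 4 and 5, where DNAJC10 and DNAJC18 are below theirs. GFP control 3 and 4 are the lowest libraries for DNAJC9. They are also low for HSPA8 and HSPH1, as are wild type 2 and KEC plus all cells.

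The authors' own edgeR comparisons split the contact libraries by plasmid. In the authors' deposited table, GFP control against Cell cell interaction GFP passed an FDR of 0.05 for 24 of the 60 members, 40.0%, against 49.5% of all genes. With contact, 8 of these were higher and 16 lower, by the sign of the authors' deposited table, which gives GFP control over contact. HSPA6 led the genes higher with contact at a log2 value of -5.45 (FDR 0.000102) in the authors' deposited table, followed by DNAJC9 at -1.07 and BAG2 at -0.70. HSF1 stood at -0.65, HSPH1 at -0.63 and HSPA14, a ribosome-associated HSP70, at -0.39 in the authors' deposited table. Among the genes lower with contact, the authors' deposited table gave DNAJC12 at 2.52, DNAJC6 at 1.24, HSPB6, a small heat shock protein of muscle, at 1.15, DNAJA4 at 1.15, DNAJC10 at 1.13 and HSPB8 at 0.96. Of the 8 listed ER members 5 were lower with contact in the authors' deposited table, against 25.3% of all genes.

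For St8i6a plasmid against Cell cell interaction st8i6a, the authors' deposited table called 10 members, 16.7%, against 25.2% of all genes. With contact 9 of these were lower, against 10.5% of all genes, among them HSPA8 at 0.59, HSPE1 at 0.48, HSPA4 at 0.40 and DNAJC12 at 1.65 on the log2 scale of St8i6a plasmid over contact in the authors' deposited table, and DNAJC1 was higher at -0.39. HSPA6 stood at -2.58 and missed the threshold there in the authors' deposited table (FDR 0.067). By the fitted weights, the libraries of largest weight differed between the authors' contact comparisons. Cell-cell interaction 2 had a weight of -0.2529 in the comparison with GFP and of 0.1159 in the comparison with ST8Sia6. Contact took negative weights in both. The largest were those of cell-cell interaction 1 and 2 and ST8Sia6 plasmid 4 and 5 with GFP. With ST8Sia6 they were those of cell-cell interaction 3, 4 and 5 and wild type 1. The weight of 0.1159 has the sign of the plasmid side, so the fit did not place cell-cell interaction 2 with contact there. Whether it entered both of these comparisons is not settled by the fit. DNAJA2, DNAJB5, DNAJC6 and DNAJC12 were lower with contact in both by the authors' deposited table. They were 16.7% of the 24 members called with GFP, and 16.7% of all 60 members were called with ST8Sia6. They were likewise 40.0% of the 10 called with ST8Sia6, and 40.0% of all 60 members were called with GFP. The overlap was thus no larger than these shares. The share of all genes called in both was not computed, and the difference between the contact effects was not tested.

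Comparing plasmids, the authors' deposited table called 1 member in each comparison. HSPB8 was lower in St8i6a plasmid than in GFP control (log2 fold change -0.66, FDR 0.0475 in the authors' deposited table), against 1.37% of all genes called. HSPB6 stood at -0.90 for Cell cell interaction GFP over Cell cell interaction st8i6a (FDR 0.00645 in the authors' deposited table), against 4.74% of all genes called. In CPM, HSPB6 had 3.30, 2.76, 5.94, 8.42 and 5.12 in cell-cell interaction 1 to 5, with libraries 1 and 2 the 2 lowest. ST8Sia6 plasmid 4 and 5, which the fitted weights also place with Cell cell interaction GFP, had 3.52 and 4.46 CPM. Wild type 1, placed with Cell cell interaction st8i6a, had 6.99 CPM.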

How the data were processed

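Total RNA was sequenced from 18 libraries of pig cells. The build susScr11 and the tools STAR 2.7.10a, FastQC 0.11.5, Subread 2.0.3 with featureCounts, and edgeR 3.40.2 come from the submitters' processing notes. The annotation and the treatment of strand and of multiply matching reads were not stated. Raw counts per gene, log2 fold changes, a signed fold change (score), each p-value and FDR, and other columns such as gene length are as deposited by the authors. Both deposited tables held identical counts, and the least counted gene had 23 counts in all.

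CPM were TMM-scaled over all libraries, and CPM per kilobase used the deposited gene length. A comparison used only libraries of its own labels, with filterByExpr, TMM and the robust two-sided quasi-likelihood test of edgeR 4.0.16 (in R 4.3.3 with limma 3.58.1), with Benjamini-Hochberg adjustment over all genes tested. Standard errors came from the F statistic. The scripts were tested on simulated data. Log2 ratios of counts were compared by exact permutation over 252 regroupings. The authors' fold changes were fitted by least squares to library log2 CPM, with r2 of at least 0.976.

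The members, lists, tests and alternatives were chosen with earlier results of these data known. Named genes were 19 fixed members, the 6 largest passing changes per direction with a mean of at least 1 CPM, the 3 lowest p per direction where fewer than 3 passed, and the 5 most variable. Other genes named were chosen after their values were seen. Alternatives were DESeq2 1.42.0, limma-voom, RLE scaling, no filter, a minimum of 5 CPM, 1 fit over all groups, mitochondrial genes left out, libraries under 10% mitochondrial, libraries against their label left out, and each library left out. Overlapping genes, 28 of the members, and near-identical HSP70 genes have uncertain counts.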

Additional observations from a re-analysis of the deposited data

Results flagged for a closer look

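Single libraries far from the rest of their label were looked for in the 32 named members. The labels searched were cell-cell interaction, ST8Sia6 plasmid and GFP control. The measure was the gap to the nearest library over the range of the label, set against Dixon's 95% limit for 5 libraries. Gap and range were taken on the log2 scale used above for the SD over libraries, and the levels below are given in CPM. Chance flags about 1 in 20 groups, and 4 of 96 were found. Cell-cell interaction 5, the library of its label with a low mitochondrial share, supplied 3 of them. It was high for HSPA4L, at 86.9 CPM against 67.1 to 69.5 CPM in the other 4, and for the ER membrane gene DNAJB14, at 47.5 CPM against 25.4 to 28.5 CPM. It was low for HSPB1, at 189 CPM against 291 to 348 CPM in the other 4. GFP control 5, which the authors' fold changes place with St8i6a plasmid, was low for DNAJA4, at 3.15 CPM against 5.07 to 5.84 CPM in the other 4. The part of the mitochondrial share in these values was not tested.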

How the results depend on the processing

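Of 771 recomputed fold changes of named members, 678 kept their direction and side of the threshold, 37 lost and 27 gained significance, and 29 changed sign. With libraries under 10% mitochondrial, 0 members passed between cell-cell interaction and GFP control (1 against 5 libraries), and log2 fold changes turned for HSPA6 (-1.02), HSF1 (-0.34), DNAJC5 (-0.10), HSPH1 (-0.49), DNAJA1 (-0.40), DNAJB1 (-0.81), DNAJB14 (0.038) and HSPD1 (0.011); HSPA6 against ST8Sia6 plasmid turned to -0.22, and the HSPH1 to HSPA4 ratio of ST8Sia6 plasmid over GFP control to -0.062. Members near 0 changed sign with no filter (DNAJA1 -0.0039, DNAJB1 -0.029), limma-voom (DNAJB1 -0.10), all groups in 1 fit (DNAJA1 -0.0039, DNAJB1 -0.029), at least 5 CPM (BAG3 0.0032) and without libraries against their label (BAG3 0.013). Leaving out 1 library in turn gave 10 to 23 members between cell-cell interaction and GFP control, 0 to 12 between cell-cell interaction and ST8Sia6 plasmid, and, for cell-cell interaction over GFP control, log2 fold changes of -0.11 to 0.16 for DNAJA1, -0.33 to 0.14 for DNAJB1 and -0.15 to 0.069 for BAG3 and log2 ratio differences of 0.45 to 0.75 for HSPH1 to HSPA4 and -0.073 to 0.13 for HSPD1 to HSPE1; the HSP90AA1 to HSP90AB1 difference of ST8Sia6 plasmid over GFP control ran from -0.0026 to 0.12. Between cell-cell interaction and ST8Sia6 plasmid, 8 members passed with DESeq2, 4 with all groups in 1 fit and 14 without libraries against their label; DESeq2 called 2 between wild type and GFP control. Where no value above names a library or share, the cause was not tested. All genes shared 1 scaling, so a shift of the whole transcriptome would not be seen. No wild type or GFP control library exceeded 10% mitochondrial, so that setting left out no library there. No paired analysis was possible because the labels carry no replicate numbers shared between groups. Depth limited DNAJC12, HSPB7, DNAJB13 and HSPA1L most.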

Other observations

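Values of 3 further members, chosen after their values were seen, are given here. DNAJC18, an ER membrane J protein, had 22.8, 23.0, 24.5, 26.3 and 55.1 CPM in cell-cell interaction 1 to 5 and 24.9 and 24.1 CPM in ST8Sia6 plasmid 4 and 5, against 35.9 to 61.5 CPM in GFP control libraries. All 6 libraries with over 10% mitochondrial counts were the lowest of the 18. DNAJC11, a protein of the mitochondrial cristae junctions, had 98.1, 83.6, 82.1, 67.5 and 48.2 CPM in cell-cell interaction 1 to 5, against 71.4, 66.3, 46.9, 46.6 and 77.1 CPM in GFP control 1 to 5, and the lowest levels were in wild type 1 and 2 and KEC plus all cells at 45.4, 41.1 and 40.4 CPM. BAG4, which binds death receptors as well as HSP70, had 28.7, 38.8, 32.4, 32.5 and 52.0 CPM in cell-cell interaction 1 to 5, against 41.4 to 52.7 CPM in GFP control libraries. Between cell-cell interaction and GFP control, 0 of these 3 passed with edgeR or DESeq2, and DNAJC18 had an unadjusted p of 0.0344. In edgeR DNAJC18 passed as lower without GFP control 5, the library of these labels that is against its label, and without cell-cell interaction 5, and BAG4 passed as lower without cell-cell interaction 5.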
